A study of Sus scrofa with 12 samples.

Results

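The genes described here are the ADAM and ADAMTS metalloproteases in the pig testis. They were chosen by name: a row of the coding-gene table belongs to them when its symbol is ADAM or ADAMTS followed by a number (with 1 optional letter for ADAM). Of the 21674 genes in the table, 37 did so. By textbook role they fall into 5 germ-cell ADAMs (ADAM2, ADAM3A, ADAM5, ADAM29 and ADAM30), 12 somatic ADAMs (ADAM8, 9, 10, 11, 12, 15, 17, 19, 22, 23, 28 and 33), 19 ADAMTS genes and ADAM7, an ADAM of the epididymis that was kept apart. The ADAMTS genes comprise 7 proteoglycanases (ADAMTS1, 4, 5, 8, 9, 15 and 20), 3 procollagen N-proteinases (ADAMTS2, 3 and 14) and 9 others (ADAMTS6, 7, 10, 12, 13, 16, 17, 18 and 19).

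ADAM proteins span the cell membrane and carry a metalloprotease and a disintegrin domain. Some of them, ADAM10 and ADAM17 above all, cut the outer part off membrane proteins such as Notch receptors and growth factor precursors, while the ADAMs of germ cells end up on the sperm surface, where several are needed for sperm to pass the oviduct and bind the egg coat in mice. ADAMTS proteins are secreted into the extracellular matrix, where they cut proteoglycans or trim procollagens.

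Testes were removed by castration from boars of the Hezuo (HZ) and Landrace (LC) breeds. RNA of each testis was depleted of ribosomal RNA and sequenced as a strand-specific library. HZ boars were 30 days (group Ha) or 120 days old (Hb), and LC boars were likewise 30 days (La) or 120 days old (Lb). Each group held 3 biological replicates, so that a p-value measures the spread between these boars. The estimated counts of a library summed to between 17165519 and 23758931.

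Levels of a gene across groups are given in CPM (counts scaled to a common library size), with TMM factors over the 12 libraries, and are listed for libraries 1, 2 and 3 of a group. Levels of different genes are compared in FPKM, which also divides by transcript length. A gene was called in a comparison when edgeR gave a Benjamini-Hochberg adjusted p under 0.05, over all genes tested, and an absolute log2 fold change over 1. Fold changes are the second group over the first, with their standard error (SE, 3 libraries per group). For 1 gene alone, 0.1 is the smallest p that exact permutation of 3 libraries against 3 allows, and edgeR goes below it by pooling the spread across genes. Another scaling moves these values. With total library size in place of TMM, the median log2 fold change of all genes shifted by -0.30 in Ha vs Hb and by -0.17 in La vs Lb. For the interaction of breed and age it shifted by 0.15. FPKM can be lower at 120 days where CPM is not: ADAM17 had means of 64.5 CPM in Ha and 66.1 in Hb, but of 16.1 and 12.1 FPKM. Other ways of fitting are named where they changed a call. Among them, limma on log2(FPKM + 1) shrinks the fold changes of genes near or under 1 FPKM by the 1 that it adds.

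The balance of ADAM transcripts, summed over members only, shifted with age. At 30 days the transcripts of the 12 somatic ADAMs summed to 103, 98.2 and 111 FPKM in Ha and 128, 129 and 153 in La, and those of the 5 germ-cell ADAMs to 0.65, 0.63 and 0.57 and 1.22, 0.66 and 1.35. At 120 days the germ-cell ADAMs summed to 283, 206 and 262 FPKM in Hb and 218, 172 and 197 in Lb, and the somatic ADAMs to 38.05, 48.5 and 40.8 and 52.1, 50.6 and 63.5. In every library of 30 days the somatic sum was the higher, and in every library of 120 days the germ-cell sum was, with somatic ADAMs still present. The 19 ADAMTS genes together stood at 84.8, 85.6 and 79.95 FPKM in Ha, 79.6, 79.9 and 86.3 in La, 14.2, 12.9 and 12.04 in Hb and 25.1, 30.2 and 26.5 in Lb.

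Of the 37 members, 36 reached 10 counts in at least 1 library and 35 passed the filter of Ha vs Hb. There, 22 of the 35 were called, in a comparison in which 51.4% of all 16548 genes tested were called. Of the 22, 6 were higher in Hb (28.2% of all genes) and 16 were lower (23.2%). In La vs Lb, 21 of 36 were called, against 47.6% of 16637 genes, 6 of them higher in Lb (27.5%) and 15 lower (20.1%). The 4 germ-cell ADAMs tested were all called and higher at 120 days in both breeds, with a median log2 fold change of 9.17 in HZ and 8.76 in LC, where all genes had medians of -0.02 and 0.01. ADAM30 (8 counts over Ha, 5 over La) and, in HZ, ADAM5 (1 count over Ha) passed the filter only through the 120-day libraries. They could thus only come out higher, and ADAM29, low at both ages, was not tested. The medians of the 12 somatic ADAMs were -1.13 and -0.64, and those of the 19 ADAMTS genes -1.38 and -1.04. Of the somatic ADAMs and ADAMTS genes together, 16 of 31 fell and 2 rose in HZ, and 15 of 31 fell and 2 rose in LC.

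Breed called few members. At 30 days (Ha vs La) 2 of 35 were called, both higher in La, against 7.62% of 15648 genes (3.60% higher and 4.01% lower), a share close to that of all genes. At 120 days (Hb vs Lb) 3 of 35 were called, all higher in Lb, against 3.85% of 16311 genes (2.65% higher and 1.20% lower). That number hung on single libraries: it was 0 without Hb3, without Lb1, without Lb2 or without Lb3, and 5 without Hb1. The count of Ha vs La was 3 without Ha3 and 1 without any other library. The interaction, which tests whether the change with age in LC differed from that in HZ, was called for 6 of 36 members, against 5.14% of 17332 genes. Of the 6, 5 were positive (3.51% of all genes), meaning a smaller fall or a larger rise in LC, and 1 was negative (1.62%).

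**Figure D1:**
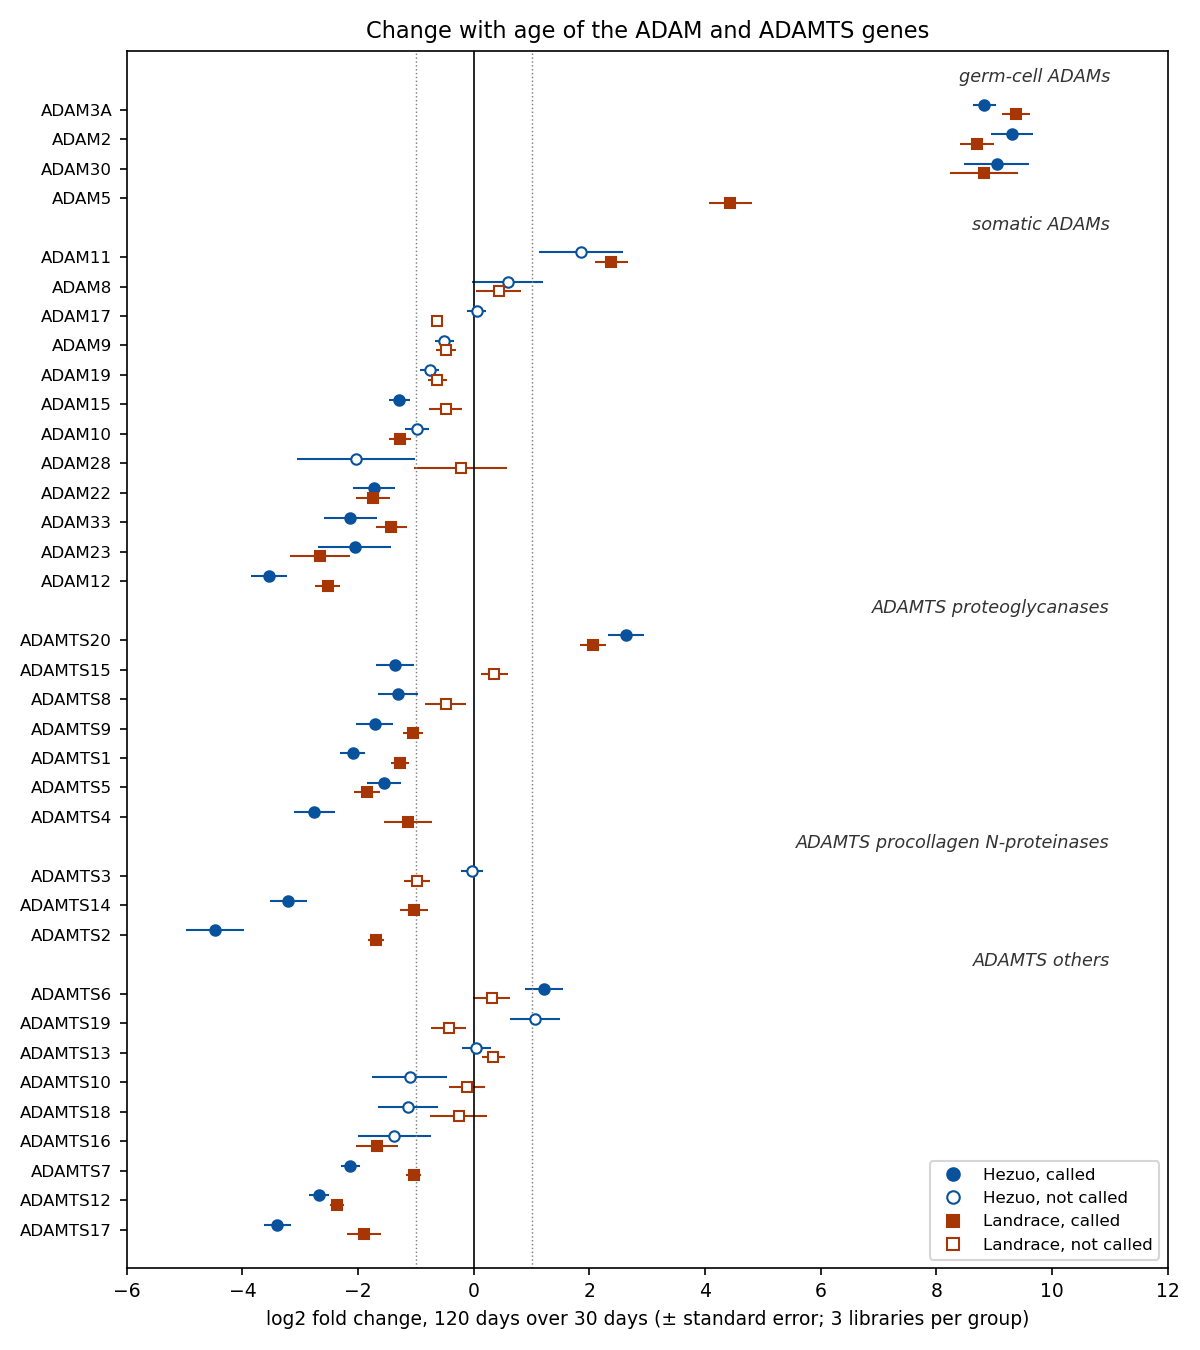
The log2 fold change from 30 to 120 days (x axis) of each member that passed the filter, by group of genes, in HZ (circles, 3 Ha and 3 Hb libraries) and LC (squares, 3 La and 3 Lb libraries). Bars are the standard error, filled symbols were called and dotted lines mark a log2 fold change of 1 in either direction. ADAM5 is shown for LC only, since Ha held 1 count of it, and ADAM7 and ADAM29 are not drawn. The germ-cell ADAMs lie between 4.43 and 9.37, and ADAM11, ADAMTS20 and ADAMTS6 are the other genes called higher in at least 1 breed.

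ADAM2, or fertilin beta, is a sperm surface protein on which other sperm ADAMs depend. It stood at 1.04, 0.566 and 0.74 CPM in Ha and 1.07, 0.708 and 0.526 in La, and at 613, 348 and 516 in Hb and 395, 292 and 252 in Lb. Every library of 120 days was thus far above every library of 30 days, and the breeds overlapped at each age. The log2 fold change was 9.30 ± 0.36 in HZ (adjusted p = 2.4e-06) and 8.70 ± 0.29 in LC (9.2e-08). ADAM3A, the pig counterpart of the mouse sperm protein cyritestin, had 0.807, 0.889 and 0.857 CPM in Ha, 415, 325 and 412 in Hb, 0.639, 0.253 and 0.486 in La and 331, 271 and 315 in Lb. Its libraries of the 2 ages lay equally far apart, with log2 fold changes of 8.83 ± 0.20 and 9.37 ± 0.24. ADAM30, a gene of the testis in other mammals, was almost silent at 30 days, at 0.0384, 0.242 and 0.0389 CPM in Ha and 0.213, 0 and 0 in La. It reached 73.2, 38.2 and 61.8 in Hb and 42.02, 37.05 and 26.1 in Lb, log2 fold changes of 9.05 ± 0.56 and 8.82 ± 0.58, with no overlap of the ages. With 8 counts over Ha and 5 over La, it did not pass the filter between the breeds at 30 days.

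ADAM29 barely left the floor, which was set at 3 counts over a group. It had no count in any library of 30 days, a highest estimated count of 6.5 at 120 days, and 0.229, 0.185 and 0.262 CPM in Hb against 0.276, 0 and 0.102 in Lb. Against the floor it was at least 5.63-fold higher in Hb than in Ha and at least 2.89-fold higher in Lb than in La. It did not pass the filter, and was called higher in Hb than in Ha only with no filter on low counts. The first bound was 3.71 without Ha1 and 3.74 without Ha3. The second was 1.89 without La1, 1.84 without La3 and 4.38 without Lb2, and without Lb1 both groups were at or under the floor. Intervals and floors cover counting error only. A gene described as ADAM 29-like (LOC110258836, on an unplaced sequence) falls outside the naming rule and was picked after its values were seen. It had 0, 0.242 and 0 CPM in Ha, 0, 0.101 and 0.445 in La, 204, 127 and 216 in Hb and 124, 70.2 and 74.0 in Lb. The low counts thus hold for the ADAM29 entry alone, and whether reads were divided between these genes was not tested.

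By FPKM, ADAM2 and ADAM3A led all members at 120 days. Their means were 113 ± 23.8 and 104 ± 8.09 FPKM in Hb (SD, n = 3), where they ranked 423 and 480 among the 21674 genes, and 80.7 ± 15.7 and 93.1 ± 12.3 in Lb. In neither breed did these leading genes differ beyond their spread. ADAM5 (18.1 ± 6.52), ADAM30 (15.2 ± 3.81) and the somatic ADAM10 (15.2 ± 5.14) followed in Hb, again within their spread of one another. In Lb the next in order were ADAM10 (20.4 ± 5.601), ADAM17 (12.1 ± 1.13), ADAM5 (11.4 ± 3.201) and ADAM30 (10.4 ± 1.88). At 120 days edgeR called 0 of the 4 germ-cell ADAMs tested between the breeds (3 had an unadjusted p under 0.05), and neither DESeq2 nor limma called any. All 4 fitted log2 fold changes of Hb vs Lb were negative, from -0.81 for ADAM5 to -0.28 for ADAM3A, with adjusted p from 0.151 to 0.263.

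ADAM5, a sperm ADAM with no functional copy in humans, set the breeds apart at 30 days. Its estimated counts were 0, 0.64 and 0 in Ha and 19.6, 10.2 and 36.01 in La, or 0, 0.0404 and 0 CPM against 0.852, 0.506 and 1.46. All 3 La libraries held more than any Ha library. La was thus 74.3-fold above Ha by counts (95% counting interval 12.9 to 2978, adjusted p = 0.00515), a ratio that rests on 1 count over the Ha libraries. It was 48.99-fold without Ha1, 49.3-fold without Ha3 and, without Ha2, which held that count, at least 16.7-fold. At 120 days the order was the other way round, with 53.8, 24.1 and 31.5 CPM in Hb and 18.8, 16.6 and 24.8 in Lb, groups that overlapped. The rise with age came to 2731-fold in HZ (95% counting interval 489.6 to 107924) and to a log2 fold change of 4.43 ± 0.37 in LC. Without Ha1 or Ha3 the rise in HZ was 1801-fold or 1814-fold, and without Ha2 at least 616-fold. The interaction was called (adjusted p = 0.00377) and was larger in HZ, and no fitted size is given because Ha lay at the floor. The call of Ha vs La was kept without each of the 6 libraries in turn, and was lost with limma on log2(FPKM + 1), under the fold threshold (adjusted p = 0.01699).

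ADAM5 counts were not whole, as were those of 11 other members (ADAM3A, 7, 10, 11, 28 and 29 and ADAMTS6, 10, 13, 15 and 17), so reads may have been divided between genes and their values are uncertain to that extent. Next to ADAM5, 184 bases away on chromosome 15, lies a gene described as ADAM 5-like (LOC110255277), whose symbol falls outside the naming rule. The neighbour was chosen after its values were seen. Its estimated counts were 0, 12.3 and 10.7 in Ha, 5.25, 3.61 and 0 in La, 29.5, 18.1 and 9.83 in Hb and 10.3, 6.69 and 11.6 in Lb. It thus had more counts than ADAM5 in 2 of the 3 Ha libraries and fewer in every La library. With both genes added together the counts were 0, 12.9 and 10.7 in Ha and 24.8, 13.8 and 36.01 in La, still without overlap. They lay less far apart than those of ADAM5 alone, with 12.9 in the highest Ha library and 13.8 in the lowest La library. The 74.3-fold and 2731-fold ratios and the interaction are those of ADAM5 alone, and none was computed for the sum. Whether reads of the pair were exchanged was not tested.

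ADAM2 and ADAM5 belong to a row of ADAM genes on chromosome 15 (Sscrofa11.1). From 47104604 to 47601722 lie genes described as ADAM3b (LOC100049687), ADAM2 (47207727 to 47278315), ADAM 5-like, ADAM5 (47343143 to 47376407), ADAM 32 (LOC100525542) and the somatic ADAM9 (47523768 to 47601722). ADAM9, a widely expressed sheddase, began 1959 bases beyond the ADAM 32 gene and did not share the rise. It had 13.7, 11.8 and 10.02 FPKM in Ha and 4.96, 7.32 and 5.58 in Hb, against 0.52, 0.34 and 0.22 and 2.31, 1.73 and 2.93 for its neighbour ADAM 32. ADAM9 was lower and ADAM 32 higher in every Hb library than in any Ha library. By edgeR the fall of ADAM9 in HZ was smaller than by FPKM (-0.51 ± 0.16, adjusted p = 0.0254), under the fold threshold and so not called. The ADAM3b gene differed between libraries of a group, with 2.9, 0 and 10.4 FPKM in Hb and 9.41, 3.19 and 0 in Lb, so that both groups held a library at 0. ADAM3A lies on chromosome 17 (9088864 to 9166263), beside a gene described as ADAM 18 (LOC100519521, 16 counts over Ha and 88 over Hb).

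**Figure D2:**
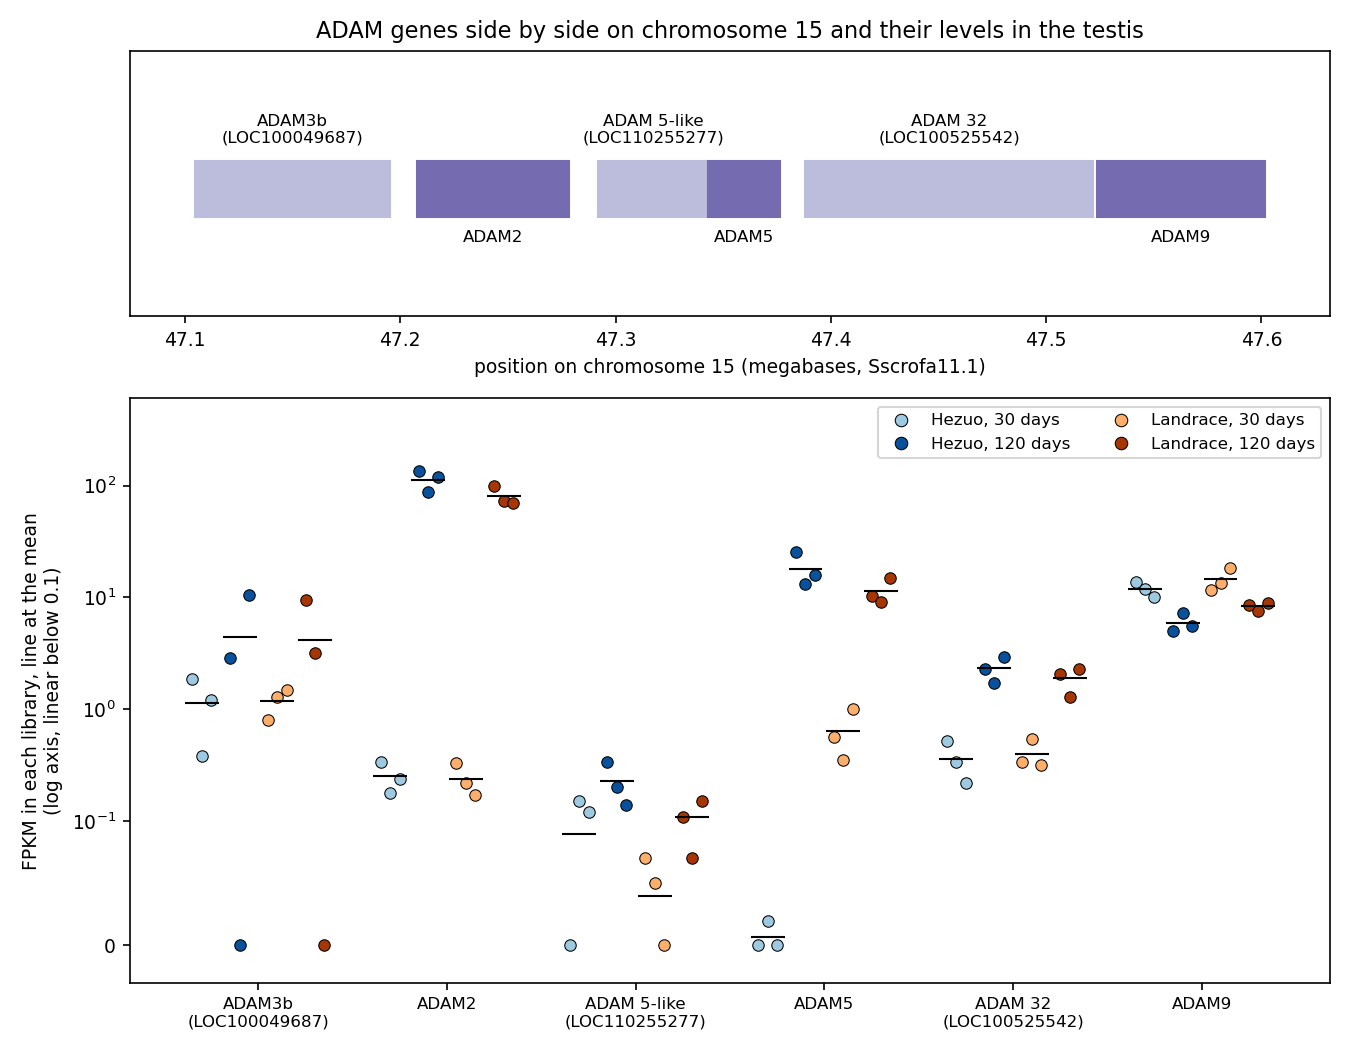
Above, the ADAM genes side by side on chromosome 15 (Sscrofa11.1, megabases), with members dark and genes under LOC symbols light. Below, their FPKM in each of the 3 libraries of a group (points) and the group mean (line), on an axis that is logarithmic above 0.1 and linear below. ADAM2 and ADAM5 are high at 120 days, and ADAM9 is above 4 FPKM in all 12 libraries.

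The naming rule leaves out 15 genes that the table describes as ADAMs under LOC symbols, which were listed after the data were seen. In 7 of them every library of 120 days stood above 10 CPM and every library of 30 days under 2 CPM. The share of all genes that meet the same cut is not given here. The most abundant was an ADAM 20-like gene on an unplaced sequence (LOC110258345), at 822, 343 and 618 CPM in Hb and 530.3, 241 and 206 in Lb. Its means were 108 ± 37.3 FPKM in Hb and 66.2 ± 33.9 in Lb (SD, n = 3), in Hb within the spread of ADAM2 and ADAM3A. The order and sums of members by FPKM leave such genes out. Of a pair described as ADAM 1a-like on chromosome 14, LOC110256875 had 339.5, 220.0 and 229 CPM in Hb and 103, 81.95 and 62.05 in Lb, while LOC100737404 had 121, 114 and 360.2 and 247, 215 and 122. The first of the pair was higher in every Hb library than in any Lb library, and the second overlapped between the breeds. Counts of all 15 were not all whole.

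Markers of spermatocytes and spermatids rose with the germ-cell ADAMs, and those of spermatogonia went both ways (all genes 28.2% higher and 23.2% lower in HZ, 27.5% and 20.1% in LC). The 10 spermatid markers summed to 4.99, 5.57 and 6.504 CPM in Ha, 8.91, 7.79 and 4.49 in La, 6452, 5763 and 8175 in Hb and 4177, 3430.3 and 3123 in Lb. All 9 tested in each breed were called higher at 120 days, PRM1 was the most abundant in all 4 groups, and none was at 0 throughout a group. Only 5 of the 10 passed the filter between the breeds at 30 days. The others tested with age thus passed it through the 120-day libraries and could only come out higher. The 8 spermatocyte markers summed to 31.8, 35.8 and 19.9 CPM in Ha, 16.2, 14.2 and 12.9 in La, 774, 673 and 647 in Hb and 500.0, 482 and 489 in Lb, with 8 of 8 called higher in both breeds (PIWIL1 was the most abundant except in La, where MEIOB was). Between the breeds at 120 days, 10 of 10 spermatid markers had a negative fold change in Hb vs Lb and 1 was called lower in Lb (all genes 1.20%). Of the 8 spermatocyte markers 7 had a negative fold change, edgeR called none (4 at an unadjusted p under 0.05, no other tool used), and their sum was lower in every Lb library than in any Hb library. The 11 spermatogonia markers summed to 369.5, 366 and 305 CPM in Ha, 224, 224 and 235 in La, 848, 817 and 811 in Hb and 698, 634 and 650.5 in Lb, with 3 higher and 6 lower in HZ and 4 higher and 5 lower in LC. Their most abundant gene was DAZL in Ha, ZBTB16 in La and DDX4 at 120 days, and none of the germ-cell markers was at 0 in a group. In bulk samples, more cells of a type and more RNA per cell cannot be told apart, and the part of cell numbers in the change of the ADAMs was not tested.

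Germ-cell ADAMs pass through chaperones and other proteins on their way to the sperm surface. Of 11 such genes 10 were in the table, and 5 of the 7 tested in HZ and 5 of the 8 in LC were called, all higher at 120 days (all genes 28.2% and 27.5%). The testis chaperone CLGN rose by a log2 fold change of 4.18 ± 0.26 in HZ and 4.43 ± 0.18 in LC, and CALR3 by 6.05 ± 0.46 and 5.74 ± 0.23. ACE, whose germ-cell form is needed for ADAM3 to reach the sperm surface in mice, stood at 108, 111 and 83.3 CPM in Ha, 1495, 1306 and 1558 in Hb, 174, 131 and 152 in La and 1122, 1150.2 and 851 in Lb. It rose in both breeds, and more in HZ (interaction -1.07 ± 0.23, adjusted p = 0.02005), a call lost without Ha3, Hb3, La1 or Lb3, where the value was -0.91 to -0.98, and also with total library size (-0.92) and with limma on log2(FPKM + 1) (-0.88) or log2(FPKM + 0.1) (-0.903). TEX101, a germ-cell surface protein that ADAM3 also needs in mice, had 12.2, 7.95 and 10.5 CPM in Hb and 24.7, 22.1 and 23.1 in Lb, and was the gene of this list called between the breeds at 120 days (1.24 ± 0.20). That call was lost without Hb3 or any 1 of the Lb libraries (adjusted p 0.0673 to 0.0804), with the replicate block (0.0613) and with all 12 libraries in 1 fit (0.2305). LY6K, its partner, was lower in La than in Ha (-2.70 ± 0.77), at 10.3, 6.67 and 1.01 CPM in Ha and 1.02, 1.31 and 0.486 in La, groups that overlapped, and this call held only without Ha3 (adjusted p 0.0910 to 0.144 without any other library) and was lost with limma on log2(FPKM + 1) (-1.16, 0.1304) or log2(FPKM + 0.1) (-2.03, 0.1098). PRSS37 was at or near the floor and PDILT was too low to be tested.

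Among the somatic ADAMs, ADAM10 and ADAM17 were the main sheddases by level (values of these and of ADAM7, ADAM8 and ADAM28 are listed by a choice made after they were seen). ADAM10 had 102, 103 and 125 CPM in Ha, 40.3, 70.5 and 55.9 in Hb, 149, 155 and 200.0 in La and 67.96, 52.4 and 81.2 in Lb. Both breeds were lower at 120 days in all 3 libraries, by -0.98 in HZ (SE 0.21, not called, but called without Ha1, Ha2 or Hb2, at -1.03 to -1.203, with total library size, -1.26, with limma, -1.43 and -1.49, and with the replicate block, -1.004) and -1.28 in LC (SE 0.19, called). ADAM17, which releases tumour necrosis factor, had 65.2, 57.9 and 70.4 CPM in Ha and 76.8, 56.03 and 65.5 in Hb, groups that overlapped (0.05 ± 0.16). In LC it had 102, 91.8 and 97.1 CPM in La and 67.6, 58.5 and 56.2 in Lb, with every La library above every Lb library (-0.64 ± 0.11, under the fold threshold). The interaction of ADAM17 was -0.70 ± 0.19 (adjusted p = 0.04802), also under the fold threshold and so not called. At 30 days ADAM10 was the most abundant member by FPKM in both breeds, at 41.3 ± 4.79 in Ha and 61.1 ± 10.3 in La (SD, n = 3), followed by ADAMTS2 and then ADAM17 (16.1 ± 1.55 and 23.1 ± 1.06).

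ADAM12, a protease of mesenchymal cells, fell the most of the somatic ADAMs in HZ. It had 93.97, 98.97 and 90.2 CPM in Ha, 115, 99.6 and 117 in La, 12.1, 6.47 and 5.44 in Hb and 15.5, 25.5 and 15.1 in Lb. The ages did not overlap in either breed, with log2 fold changes of -3.54 ± 0.31 and -2.53 ± 0.21, and every Hb library lay under every Lb library. That breed difference was not called (1.27 ± 0.35, adjusted p = 0.0748), but it was without Hb1, the highest of its group (1.67, adjusted p = 0.0364), with DESeq2 (1.26) and with all 12 libraries in 1 fit (1.22). ADAM33, a relative that is also expressed in mesenchyme, had 13.3, 9.86 and 16.2 CPM in Ha, 4.99, 1.48 and 2.42 in Hb, 19.1, 24.2 and 16.2 in La and 5.48, 10.1 and 6.05 in Lb. It fell by a log2 fold change of -2.13 ± 0.46 in HZ and -1.42 ± 0.27 in LC, without overlap of the ages.

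ADAM22 and ADAM23 lack protease activity and bind LGI proteins in the nervous system. ADAM22 had 14.2, 18.9 and 28 CPM in Ha, 3.497, 7.17 and 7.66 in Hb, 19.8, 26.3 and 31.5 in La and 4.75, 7.95 and 9.76 in Lb. Its log2 fold changes with age were nearly equal, -1.73 ± 0.37 and -1.75 ± 0.29. ADAM23 had 6.34, 7.11 and 22.6 CPM in Ha, where Ha3 was more than 3-fold above the others, 4.82, 1.76 and 1.96 in Hb, 11.9, 31.9 and 23.1 in La and 2.53, 1.68 and 5.996 in Lb. It was called lower at 120 days in both (-2.06 ± 0.63 and -2.66 ± 0.52), in HZ only with Ha3, Hb2 and Hb3 all in the fit (-1.22, -1.84 and -1.86 without each, adjusted p 0.0652 to 0.0749), and not with limma on log2(FPKM + 1) (-0.94). ADAM11, the third ADAM of this kind, was the somatic ADAM that rose: it had 2.497, 2.06 and 0.195 CPM in Ha, 4.64, 6.93 and 5.44 in Hb, 1.58, 1.31 and 1.98 in La and 10.6, 7.06 and 7.11 in Lb. The ages did not overlap in either breed. The rise was called in LC (2.38 ± 0.29) and missed the threshold in HZ (1.85 ± 0.73, adjusted p = 0.0545), where Ha3 was low, and without Ha3 it was called (1.32, adjusted p = 0.0167). In HZ it was also called with DESeq2 (1.91), the replicate block (2.23) and all 12 libraries in 1 fit (1.85), and in LC it was not with limma on log2(FPKM + 1) (0.79).

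ADAM15 was called lower with age in HZ (-1.28 ± 0.19) and not in LC (-0.48 ± 0.28), and the difference between the breeds was not called (interaction 0.78 ± 0.37, adjusted p = 0.219). The same held for ADAM10 and ADAM11, called in LC alone, with interaction p of 0.549 and 0.7502. ADAM8, ADAM9, ADAM17, ADAM19 and ADAM28 were called with age in neither breed, with log2 fold changes from -2.04 to 0.59. Single libraries stood apart in 2 of them. ADAM8, a protease of myeloid cells, had 18.4, 4.39 and 3.54 CPM in Hb, and ADAM28 had 1.38, 1.31 and 10.01 CPM in Lb. Hb1 was the high library of the first and Lb3 of the second. In ADAM8, 2 Hb libraries lay under every Ha library (5.33 to 6.30 CPM), so its positive fold change in HZ (0.59) rests on Hb1. Without Lb3 ADAM28 was called lower in Lb than in La (-1.90, adjusted p = 0.0187). In HZ, ADAM28 was called lower without Hb3 (-3.59, adjusted p = 0.0225) and with limma on log2(FPKM + 1) (-1.08) or log2(FPKM + 0.1) (-2.62), and ADAM19 with total library size (-1.07) or limma on log2(FPKM + 0.1) (-1.201).

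ADAM7, which in other mammals is made by the epididymis, had 0, 0.485 and 0.389 CPM in Ha, 0, 0.506 and 0.567 in La, no count in Hb and 3.78, 0.889 and 0 in Lb. Each of the 3 groups with counts held a library at 0, and Lb1 was the highest. Against the floor, Ha was at least 5.21-fold above Hb, and Lb at least 29.2-fold above Hb, in pairs of groups where the gene did not pass the filter. The second bound rests largely on Lb1: it was 8.38 without Lb1 and 17.5 without Hb2. The first was 7.902 without Ha1 and 3.14 without Hb2. La and Lb overlapped (2.15 ± 1.32, adjusted p = 0.175), and without Lb3 the gene was called higher in Lb (2.73, adjusted p = 0.0483). The 5 epididymis markers in the table, ADAM7 among them, summed to 0.0768, 0.525 and 0.662 CPM in Ha, 0.0852, 1.21 and 0.648 in La, 0.287, 0.231 and 0.131 in Hb and 3.92, 0.982 and 0.254 in Lb, with RNASE9 at 0 in all 4 groups, LCN5 in Ha and ADAM7 in Hb. CRISP1 was the most abundant of them in Ha, LCN5 in Hb and ADAM7 itself in La and Lb. The part of epididymal tissue in the counts of ADAM7 was not tested.

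Of the 13 regulators of ADAM10 and ADAM17, 4 were called in each breed with age, 1 higher and 3 lower, a smaller share than the 51.4% (HZ) and 47.6% (LC) of all genes. RHBDF2, an inactive rhomboid that carries ADAM17 to the cell surface, fell by -3.14 ± 0.32 in HZ and -1.79 ± 0.18 in LC. Its interaction was 1.34 ± 0.35 (adjusted p = 0.0408), lost without Ha1, Ha3 or any 1 of the La or Lb libraries (adjusted p 0.0535 to 0.0942), with limma on log2(FPKM + 1) (0.56, 0.11002) and with the replicate block (0.0646). The proprotein convertase PCSK6 fell too (-1.87 ± 0.19 and -1.21 ± 0.32, with -0.96 in LC without Lb2, under the fold threshold). TSPAN17, a tetraspanin partner of ADAM10, rose (1.36 ± 0.16 and 1.48 ± 0.14), but less with limma and then short of the fold threshold, in HZ on log2(FPKM + 1) (0.62) and log2(FPKM + 0.1) (0.65) and in LC on the first (0.9999). TSPAN14, another of these tetraspanins, was higher in La than in Ha (1.29 ± 0.18), at 37.1, 29.1 and 29.2 CPM against 13.1, 10.1 and 15.4, and was the regulator called between the breeds at 30 days, a call lost with all 12 libraries in 1 fit (1.296, adjusted p = 0.258). Of 17 shed substrates, 11 were called in HZ (1 higher, 10 lower), and of the 16 tested in LC 8 were (all lower), where 23.2% and 20.1% of all genes were lower. The epidermal growth factor receptor ligand TGFA fell by -3.25 ± 0.50 and -2.21 ± 0.33, and AREG, another such ligand, rose in HZ (2.80 ± 0.67), with 0.34 ± 0.71 in LC and an interaction that was not called (adjusted p = 0.1805). With limma on log2(FPKM + 1) neither was called (-0.47 and -0.43 for TGFA, 0.46 for AREG in HZ). KITLG, the Sertoli cell ligand that spermatogonia need, had 28.4, 21.1 and 18.5 CPM in Hb and 49.03, 41.1 and 45.6 in Lb. It was higher in Lb without overlap (1.04 ± 0.19), a call lost without Hb3 or any 1 of the Lb libraries (adjusted p 0.0791 to 0.0977), with the replicate block (0.0659), and, under the fold threshold, with limma on log2(FPKM + 1) (0.77) or log2(FPKM + 0.1) (0.8998) and with all 12 libraries in 1 fit (0.994). TNFRSF1A, the tumour necrosis factor receptor that ADAM17 sheds, had 36.7, 9.65 and 30.7 CPM in Ha and 1.19, 1.16 and 0.607 in La (-4.72 ± 0.55). It was lower in every La library.

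All 7 ADAMTS proteoglycanases were called with age in HZ, 6 lower and 1 higher, and 5 of them in LC, 4 lower and 1 higher, where 23.2% and 20.1% of all genes were lower. ADAMTS1, a protease of versican, was the most abundant of them at 30 days, at 15.5 ± 2.94 FPKM in Ha and 11.6 ± 1.45 in La (SD, n = 3), and fell by -2.09 ± 0.21 and -1.27 ± 0.15. ADAMTS5, known as an aggrecanase, had 25.9, 23.9 and 16.6 CPM in Ha, 8.89, 8.78 and 4.72 in Hb, 24.2, 26.5 and 33.8 in La and 5.94, 7.25 and 9.605 in Lb. The ages did not overlap, with log2 fold changes of -1.55 ± 0.30 and -1.85 ± 0.23. ADAMTS4, the other main aggrecanase, fell by -2.76 ± 0.36 in HZ and -1.14 ± 0.41 in LC, where the call was lost without any of La1, La2, La3, Lb1 or Lb3 (-0.84 to -1.24, adjusted p 0.0509 to 0.101). ADAMTS9 fell by -1.71 ± 0.32 and -1.05 ± 0.17, in LC to just short of the fold threshold without La1, Lb1 or Lb3 (-0.91 to -0.99). ADAMTS8 fell in HZ (-1.31 ± 0.35), with -0.49 ± 0.36 in LC and no interaction called (adjusted p = 0.343). ADAMTS20, which acts in melanoblast migration in the mouse, was the member of this group that went up. It had 1.46, 1.82 and 2.49 CPM in Ha, 14.6, 9.29 and 11.7 in Hb, 1.88, 1.77 and 2.02 in La and 7.88, 7.297 and 7.93 in Lb, log2 fold changes of 2.64 ± 0.31 and 2.06 ± 0.22. Each 120-day library was above each 30-day library, and the Hb libraries were all higher than those of Lb, a difference that was not called (-0.57 ± 0.23). With limma on log2(FPKM + 1) the calls of ADAMTS20 (0.74 in HZ and 0.54 in LC), ADAMTS4 in LC (-0.67) and ADAMTS8 in HZ (-0.38) were lost, all under the fold threshold.

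ADAMTS2, the main enzyme that removes the amino-terminal propeptide of fibrillar procollagens, was the second most abundant member at 30 days, at 34.8 ± 1.18 FPKM in Ha and 32.2 ± 1.41 in La (SD, n = 3). Its CPM were 270.1, 288 and 287 in Ha and 271, 251 and 275 in La, which overlapped, and 22.9, 6.47 and 8.19 in Hb and 74.4, 97.1 and 69.6 in Lb, which did not. Every 120-day library was lower than every 30-day library, and every Hb library lower than every Lb library, with Hb1 the highest of its group. The fall was -4.47 ± 0.50 in HZ and -1.68 ± 0.14 in LC, and the interaction was 2.78 ± 0.50 (adjusted p = 0.0109), called without each of the 12 libraries in turn. ADAMTS14, its relative, had 14.1, 14.8 and 8.26 CPM in Ha, 1.49, 1.11 and 1.38 in Hb, 8.05, 9.61 and 9.63 in La and 3.46, 5.61 and 3.86 in Lb. It fell by -3.20 ± 0.32 in HZ and -1.04 ± 0.24 in LC (-0.89 without Lb1 and -0.97 without Lb3, under the threshold), with an interaction of 2.15 ± 0.39 (adjusted p = 0.0115). With limma on log2(FPKM + 1) the fall of ADAMTS14 in LC (-0.52) and its interaction (0.57) were under the fold threshold. ADAMTS3, which cuts VEGF-C as well as procollagen, was called in neither breed (-0.03 ± 0.20 and -0.99 ± 0.22). In LC it was called without La1 (-1.204) or Lb2 (-1.04), and its interaction was called without Hb2 (-1.11) or La1 (-1.18) or with DESeq2 (-1.02). The fall in LC was also called with total library size (-1.16), limma on log2(FPKM + 0.1) (-1.19) and all 12 libraries in 1 fit (-1.002).

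Of the 9 other ADAMTS genes, 4 were called in HZ, 1 of them higher, and 4 in LC, all lower, close to the shares of all genes called (51.4% and 47.6%). ADAMTS7, which cuts cartilage oligomeric matrix protein, had 35.9, 35.1 and 37.6 CPM in Ha, 8.08, 9.199 and 7.204 in Hb, 42.4, 37.2 and 42.4 in La and 19.3, 18.8 and 19.5 in Lb. Ages and, at 120 days, breeds were apart. It fell by -2.13 ± 0.16 in HZ and -1.04 ± 0.12 in LC, and the interaction was 1.07 ± 0.17 (adjusted p = 0.00755), with 0.68 by limma on log2(FPKM + 1), under the fold threshold. ADAMTS12, a close relative, had 70.1, 56.3 and 66.4 CPM in Ha, 9.98, 11.5 and 8.38 in Hb, 86, 99.7 and 105 in La and 18.6, 19.6 and 16.8 in Lb, with falls of -2.67 ± 0.18 and -2.36 ± 0.12. The breeds did not overlap at either age, La above Ha (0.58 ± 0.11) and Lb above Hb (0.92 ± 0.20), both under the fold threshold, though the second was called without Hb2 (1.06). ADAMTS17, a gene of connective tissue, had 18.6, 17.4 and 21.1 CPM in Ha, 1.61, 2.22 and 1.51 in Hb, 20.8, 15.2 and 20.9 in La and 6.405, 2.95 and 5.49 in Lb. It was lower in all 120-day libraries (-3.40 ± 0.24 and -1.90 ± 0.30). The interaction was 1.48 ± 0.39 (adjusted p = 0.0433), a call that was kept without Hb2 or Lb2 and lost without any other library (1.26 to 1.60, adjusted p 0.0709 to 0.0950). It was also lost with limma on log2(FPKM + 1) (0.41, adjusted p 0.178) or log2(FPKM + 0.1) (1.23, 0.0798) and with the replicate block (1.43, 0.0648).

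ADAMTS6, which acts on the fibrillin matrix, was the member of these 9 that rose in HZ. It had 4.11, 2.63 and 4.79 CPM in Ha, 8.31, 6.795 and 11.3 in Hb, 6.14, 7.58 and 4.05 in La and 5.16, 6.64 and 9.55 in Lb. Hb lay above Ha in all 3 libraries (1.21 ± 0.33), but the call was lost under several alternatives. The fold change was under the threshold without Ha2 or Hb3 (0.99 in both) and with total library size (0.898), and with limma on log2(FPKM + 1) (0.28, adjusted p 0.0707) or log2(FPKM + 0.1) (0.62, 0.106) the p missed it too. LC overlapped (0.31 ± 0.32, interaction not called, adjusted p = 0.262). ADAMTS16, a gene of the developing gonad in rodents, fell in LC (-1.67 ± 0.36), with -1.38 ± 0.63 in HZ and no interaction called (adjusted p = 0.844). In HZ it was called without Hb3 (-2.05, adjusted p = 0.0324), with limma on log2(FPKM + 0.1) (-1.56) and with all 12 libraries in 1 fit (-1.38), and in LC it was not with limma on log2(FPKM + 1) (-0.33). ADAMTS10, ADAMTS13, which cuts von Willebrand factor, ADAMTS18 and ADAMTS19 were called with age in neither breed (from -1.14 to 1.06), though ADAMTS19 was called higher in Hb than in Ha without Hb2 (1.33, adjusted p = 0.0225), with DESeq2 (1.12) and with all 12 libraries in 1 fit (1.06), and ADAMTS18 lower with total library size (-1.43).

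Of 6 inhibitors, 5 were called lower in HZ and 3 in LC (all genes 23.2% and 20.1%), none was called higher, and all 6 had a negative fold change in both breeds. TIMP2, a general metalloprotease inhibitor, stood at 1437, 1378 and 1402 CPM in Ha, 390.1, 258 and 302 in Hb, 925, 879 and 924 in La and 405, 461 and 277 in Lb (-2.13 ± 0.19 and -1.22 ± 0.17). A2M, an inhibitor that traps proteases, fell by -2.23 ± 0.63 in HZ, with -0.77 ± 0.26 in LC and no interaction called (adjusted p = 0.251). Of 8 ADAMTS-like proteins, which lack a protease domain, 7 were in the table, with 4 called in HZ (all lower) and 3 in LC (1 higher, 2 lower). ADAMTSL1 fell by -2.10 ± 0.54 and -1.91 ± 0.41 (-0.54 and -0.55 with limma on log2(FPKM + 1), under the fold threshold). ADAMTSL2, a fibrillin-binding protein, had 27.6, 26.9 and 23.9 CPM in Ha, 4.13, 4.58 and 5.24 in Hb, 9.503, 8.697 and 10.4 in La and 11.8, 7.67 and 14.1 in Lb. It fell in HZ alone (-2.48 ± 0.18 against 0.28 ± 0.25 in LC, interaction 2.73 ± 0.31, adjusted p = 0.00159). The breeds already differed at 30 days, with every La library under every Ha library (-1.47 ± 0.13, called, adjusted p = 6.4e-04), and at 120 days the order was the other way round. PAPLN was higher in LC at both ages (1.21 ± 0.12 and 1.19 ± 0.24). At 120 days the call of PAPLN was lost without Hb1, Hb3 or any 1 of the Lb libraries (1.06 to 1.29), and that of ADAMTSL2 (1.32 ± 0.30) without any 1 of the 6 (1.10 to 1.54). Both were also lost with limma on log2(FPKM + 1) or log2(FPKM + 0.1) and with the replicate block (adjusted p 0.0512 to 0.0942). At 30 days PAPLN was under the fold threshold with limma on log2(FPKM + 1) (0.98).

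Of 15 ADAMTS substrates, 13 were called in HZ (3 higher, 10 lower) and 6 in LC (2 higher, 4 lower), where 9 were not called (all genes 51.4% and 47.6%). The procollagens that ADAMTS2 and ADAMTS14 trim fell furthest in HZ. COL1A1 had 196, 285 and 181 CPM in Ha, 9.69, 4.85 and 6.09 in Hb, 297, 262 and 359 in La and 168, 155 and 139 in Lb, with fold changes of -4.99 ± 0.33 in HZ and -0.95 ± 0.13 in LC (not called) and an interaction of 4.02 ± 0.35. For COL3A1 they were -4.69 ± 0.80, -1.49 ± 0.14 and 3.19 ± 0.79, and for COL1A2 -3.83 ± 0.68, -0.98 ± 0.17 and 2.83 ± 0.71. The Hb libraries differed widely in both, from 33.7 to 237 CPM for COL3A1 (mean 105) and from 22.9 to 118 for COL1A2 (mean 54.7). The size of their falls in HZ and of their interactions therefore depends on the highest Hb library. The interaction of COL3A1 was kept without Hb1, Hb2, Hb3 or Ha3 and that of COL1A2 without Hb1, Hb2, Ha3 or Lb3, and both were lost without any other library (adjusted p 0.05002 to 0.0788). DESeq2 gave no adjusted p for the interaction of COL3A1. THBS1 (2.53 ± 0.35), FN1 (1.75 ± 0.28) and FBN1 (1.36 ± 0.29), matrix glycoproteins, and COL2A1 (2.38 ± 0.49) were also called with a positive interaction. NCAN, a proteoglycan best known from the brain, had 12.02, 14.1 and 12.2 CPM in Ha, 28.04, 15.3 and 19.4 in Hb, 8.35, 10.1 and 9.03 in La and 3.59, 2.71 and 3.96 in Lb, higher with age in each HZ library and lower in each LC library (interaction -2.12 ± 0.33, or -0.799 with limma on log2(FPKM + 1), under the fold threshold). RELN, a secreted glycoprotein, had 0, 0 and 0.857 CPM in Ha, 6.14, 6.32 and 6.56 in La, 3.78, 18.2 and 26.3 in Hb and 7.83, 16.04 and 6.2 in Lb. Its interaction (-5.11 ± 1.303) was lost without Ha1, Ha2, Hb3 or any 1 of the La or Lb libraries (adjusted p 0.0556 to 0.0856), and its difference between Ha and La (4.43 ± 0.97) without La2 or La3 (0.0540 and 0.0610). With limma on log2(FPKM + 1) neither was called (-0.704 and 0.51), nor was the interaction on log2(FPKM + 0.1) (adjusted p 0.0562) or the difference at 30 days with DESeq2 (0.0946). COL2A1 was lower in La than in Ha (-4.11 ± 0.25).

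COMP, the matrix protein that ADAMTS7 and ADAMTS12 cut, moved the other way with age: it had 0.576, 0.566 and 0.467 CPM in Ha, 462, 383 and 626 in Hb, 1.32, 0.455 and 0.364 in La and 289, 238 and 258 in Lb (9.84 ± 0.30 and 8.53 ± 0.36). Counts of COMP, COL1A1, COL1A2, FBN1, FN1, RELN, TIMP2, A2M, CLGN, CALR3, TSPAN17, ADAMTSL1, ACE, TEX101, LY6K, TSPAN14 and TNFRSF1A were not all whole, so these values are uncertain in the same way as those of ADAM5.

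Markers of somatic cells fell with these genes in both breeds (all genes 23.2% lower in HZ and 20.1% in LC). The 10 peritubular and stromal markers summed to 4737, 4613 and 4523 CPM in Ha, 601, 352 and 254 in Hb, 6939, 6220.4 and 7755 in La and 3071, 2989 and 2545 in Lb. Of them, 8 were called lower in HZ, and 5 lower and 1 higher in LC, and COL3A1 was the most abundant except in Hb, where ACTA2 was. COL1A1, COL1A2 and COL3A1 are in this list as well as among the substrates. The 7 Leydig cell markers summed to 10098, 9641 and 8777 CPM in Ha, 4021, 329.9 and 266 in Hb, 13738, 9386 and 11419.8 in La and 4903, 7370.3 and 3055 in Lb, with 4 called lower in HZ and 5 in LC (CYP17A1 was the most abundant at 30 days and INSL3 at 120 days). Hb1 stood far above the other Hb libraries in this sum, as it did for ADAMTS2 and ADAM8. The 8 Sertoli cell markers summed to 1271, 1217 and 1669.6 CPM in Ha, 401, 576 and 464 in Hb, 2654, 3234 and 2969 in La and 602, 748 and 634 in Lb, with 4 lower in each breed (INHA led at 30 days and CLDN11 at 120 days). The 5 endothelial markers, led by VWF, had 670.2, 685 and 618 CPM in Ha, 171, 303 and 185 in Hb, 799, 631 and 770.3 in La and 315, 494 and 276 in Lb, with 5 lower in HZ and 3 in LC. Those of macrophages, also 5, had 124, 101 and 107, 17.3, 20.02 and 10.6, 123, 107 and 117 and 21.2, 37.6 and 35.6 in the same order, with 5 lower in HZ and 4 in LC (CD163 led in Ha and CSF1R elsewhere). All 5 lists were lower at 120 days in every library than at 30 days in the same breed, and no marker was at 0 throughout a group. Their part in the fall of the ADAM and ADAMTS genes was not tested.

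Between the breeds at 30 days, ADAM5 and ADAMTS19 were called. ADAMTS19, a gene of valve and gonad tissue, had 1.19, 1.21 and 1.91 CPM in Ha, 3.15, 3.74 and 2.67 in La, 3.21, 1.66 and 4.06 in Hb and 2.76, 2.39 and 1.73 in Lb. Every La library was above every Ha library (1.13 ± 0.30, adjusted p = 0.0312), and the breeds overlapped at 120 days. The call was kept without Ha3 and lost without any other library of the comparison (1.02 to 1.26, adjusted p 0.0601 to 0.099997). It was also lost with limma on log2(FPKM + 1) (0.24) or log2(FPKM + 0.1) (0.81), with the replicate block (adjusted p 0.0743) and with all 12 libraries in 1 fit (0.0781). ADAM23 was called higher in La without Ha3 (1.71, adjusted p = 0.0225). ADAM10 and ADAM17 were also higher in every La than every Ha library, by 0.59 ± 0.13 and 0.58 ± 0.10, under the fold threshold, as were ADAM12, ADAMTS12 and ADAMTS13 (0.22 to 0.58). Equally apart the other way, with every La library under every Ha library, were ADAM3A (-0.88 ± 0.42), ADAM8 (-0.60 ± 0.19), ADAMTS8 (-0.85 ± 0.28) and ADAMTS16 (-0.74 ± 0.22), none called (adjusted p 0.0461 to 0.168). How large a share of all genes was equally apart is not given here, so the number of such members is no result about them. Of the markers at 30 days, 4 of 8 of spermatocytes were called lower in La (all genes 4.01%) and all 8 had a negative fold change, and 3 of 8 of Sertoli cells were called higher (6 positive; all genes 3.60%). The spermatocyte sum was lower, and the Sertoli cell sum higher, in every La library than in any Ha library. Of the others tested, 1 of 10 spermatogonia markers was called lower and 1 of 7 Leydig cell markers higher. By edgeR none was called of 5 spermatid, 10 stromal, 5 endothelial and 5 macrophage markers (0, 8, 2 and 1 at an unadjusted p under 0.05, no other tool used). Their part in the differences of the ADAM genes was not tested.

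Between the breeds at 120 days, the 3 members called were ADAMTS2 (2.74 ± 0.45, adjusted p = 0.0218), ADAMTS14 (1.74 ± 0.35, 0.0347) and ADAMTS7 (1.27 ± 0.20, 0.0182). All 3 were higher in each Lb library than in any Hb library. Of the 19 ADAMTS genes, 14 had a positive fold change and the median was 0.92, where that of all genes was 0.00. The 3 calls were lost together without Hb3, Lb1, Lb2 or Lb3, and ADAMTS14 also without Hb1. The fold changes then stayed between 2.52 and 2.82 for ADAMTS2, between 1.52 and 1.89 for ADAMTS14 and between 1.19 and 1.302 for ADAMTS7, with adjusted p from 0.0586 to 0.125. The range of ADAMTS2 does not cover the fit without Hb1, in which its call was kept. Hb1 had 22.9 CPM of it where the Hb mean was 12.5, so the size of its fold depends on that library. The 3 were also lost with the replicate block (adjusted p 0.0540, 0.0976 and 0.0665), and ADAMTS14 (0.32) and ADAMTS7 (0.79) with limma on log2(FPKM + 1). Without Hb1, ADAM12, ADAMTS9 (1.34) and ADAMTS15 (1.51) were called as well. So were ADAM12, ADAMTS15 (1.22 and 1.19) and ADAMTS17 (1.495 and 1.46) with DESeq2 and with all 12 libraries in 1 fit, ADAMTS10 (1.61) with the first and ADAMTS4 (1.503) with the second. Not called but without overlap of the breeds, ADAM9, 11, 12 and 33 and ADAMTS4, 10, 12, 13, 15 and 17 were higher in Lb (0.38 to 1.63) and ADAMTS3 and ADAMTS20 lower (-0.44 and -0.57). The share of all genes without overlap is not given here, so the length of this list is no result about the members. For 1 gene alone, such separation has an exact permutation p of 0.1. The substrates COL1A1 (4.53 ± 0.26), COL3A1 (3.86 ± 0.73), COL1A2 (3.64 ± 0.64), FBN1 (2.25 ± 0.25) and THBS1 (1.9997 ± 0.34) were called higher in Lb and NCAN lower (-2.56 ± 0.29). Among them COL3A1, COL1A2 and THBS1 lost the call without Hb3, Lb1 or Lb2 (adjusted p 0.0645 to 0.0931), and COL3A1 and COL1A2 also without Lb3 (0.0776 and 0.0665). THBS1 lost it also with limma on log2(FPKM + 1) (0.993) and with the replicate block (adjusted p 0.0546). Markers of all 5 somatic cell types had positive fold changes, 10 of 10 for stromal, 7 of 7 for Leydig, 8 of 8 for Sertoli and 5 of 5 each for endothelial cells and macrophages. Called higher were 5 stromal, 1 endothelial and 1 macrophage marker (all genes 2.65%), and none by edgeR of the Leydig and Sertoli cell markers (3 of each at an unadjusted p under 0.05, no other tool used on markers). The number of related genes called, of 63 tested (all genes 3.85%), fell from 10 to 3 without Hb3, Lb1 or Lb2 and to 4 without Lb3. Whether these cells account for the breed difference was not tested.

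**Figure D3:**
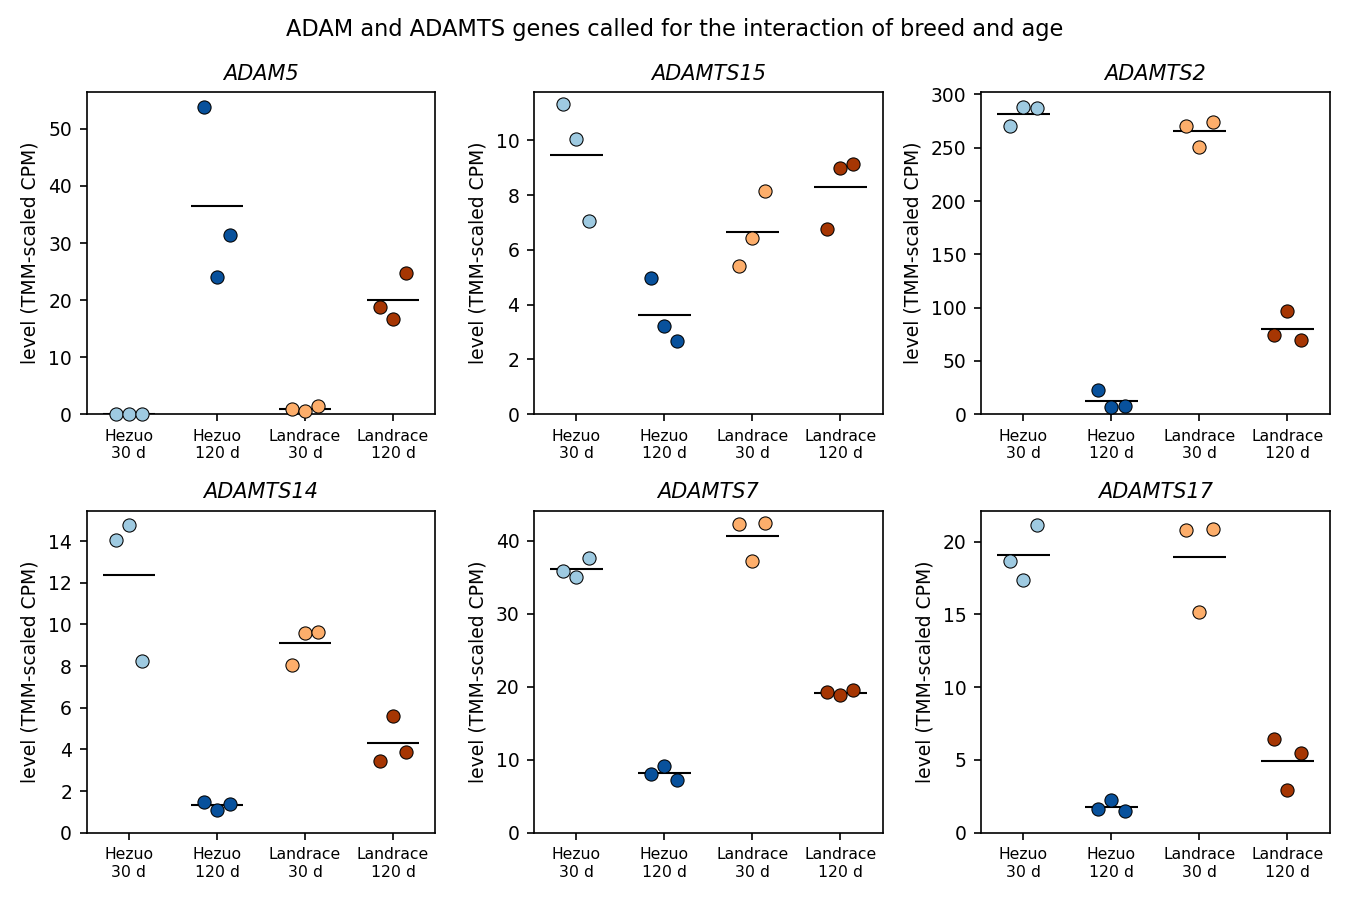
Level (y axis, TMM-scaled CPM, from 0) of the 6 members called for the interaction of breed and age, with a point for each library and a line at the mean of the 3 libraries of a group. ADAM5 was near 0 in Ha and between 0.51 and 1.46 CPM in La, and ADAMTS2, ADAMTS14, ADAMTS7 and ADAMTS17 were lower in each Hb library than in any Lb library.

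ADAMTS15, a versican-cutting relative of ADAMTS1, was called with age in HZ and not in LC, and its interaction was called. It had 11.3, 10.1 and 7.05 CPM in Ha and 4.99, 3.24 and 2.68 in Hb, but 5.41, 6.42 and 8.14 in La and 6.77, 8.98 and 9.15 in Lb. The ages were apart in HZ (-1.36 ± 0.32) and overlapped in LC (0.36 ± 0.24), and every Lb library was above every Hb library (1.24 ± 0.31, adjusted p = 0.0618). The interaction was 1.71 ± 0.40 (adjusted p = 0.0292), lost without Ha1, Ha2, Hb3, La1, La2, Lb2 or Lb3 (1.58 to 1.73, adjusted p 0.0519 to 0.0686), with the replicate block (0.0544) and, under the fold threshold, with limma on log2(FPKM + 1) (0.81, and -0.78 for the fall in HZ). Without Hb1, ADAM12 (1.45) and ADAMTS9 (1.12) were called too, and without Hb2 ADAMTS19 (-1.80).

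Last, 42 lncRNA transcripts of 15 lncRNA genes overlap a member or lie within 10 kb of 1, at 10 members. In Ha vs Hb, 3 of the 17 tested were called (1 higher, 2 lower), against 56.2% of 2909 lncRNA transcripts, and in La vs Lb 8 of 18 (2 higher, 6 lower), against 61.1% of 2988. Between the breeds edgeR called none of 18 at 30 days (all lncRNAs 6.35%, 2 at an unadjusted p under 0.05) and none of 14 at 120 days (3.14%, 5 at an unadjusted p under 0.05). For the interaction it called none of 23 (all lncRNAs 0.0257% of 3886, 4 at an unadjusted p under 0.05), and no other tool was run on them. Beside ADAM3A, the assembled transcript MSTRG.22394.1 (chromosome 17, 9169546 to 9176389, plus strand) lay between ADAM3A and the ADAM 18 gene. Its estimated counts were 1.68, 0 and 0 in Ha, 48.4, 79.3 and 79.3 in Hb, 0 in all 3 La libraries and 97.7, 151 and 131 in Lb. It was thus found at 120 days in both breeds, as was ADAM3A. Most of the others lie at ADAMTS9. The 15 transcripts of LOC106505633 summed to 285, 275 and 265 lncRNA CPM in Ha, 155, 309 and 177 in Hb, 364, 396 and 416 in La and 38.8, 44.2 and 70.1 in Lb. They were lowest in all 3 Lb libraries, and Ha and Hb overlapped. Those of LOC102162007, 12 in number, summed to 803, 918 and 767 in Ha, 282, 429 and 256 in Hb, 734, 552 and 722 in La and 590, 554 and 711 in Lb. Here Hb was the lowest group, and La and Lb overlapped. Transcripts of a gene share exons, so their counts are not independent.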

How the data were processed

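The authors deposited expected counts (estimated counts) and FPKM for coding genes and lncRNA transcripts. Their reads had been filtered with fastp 0.18.0, cleared of ribosomal RNA with Bowtie2 2.2.8, mapped to Sus scrofa 11.1 with HISAT2 2.1.0 and assembled with StringTie 1.3.4. The paper names StringTie for FPKM. The tool behind the estimated counts is not given in the sources used here. Counts were rounded to whole numbers and tested with edgeR 4.0.16 (R 4.3.3; quasi-likelihood test, TMM, filterByExpr with a minimum count of 10) over the whole table, on the 6 libraries of each pair of groups. The interaction, (Lb minus La) minus (Hb minus Ha), used all 12. A count was taken as whole within 0.001. lncRNA transcripts were fitted in the same way on their own.

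Alternatives were DESeq2 1.42.0, RLE or total-size scaling, other filters on low counts, limma 3.58.1 on log2(FPKM + 1) and log2(FPKM + 0.1), the replicate number as a block, all 12 libraries in 1 fit, and each library left out in turn. Those for the related genes, and libraries left out for folds at the floor, were added after seeing the data.

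Members and lists were chosen with earlier results of these data known. The lists are the member groups named above, sperm ADAM maturation genes, regulators and shed substrates of ADAM10 and ADAM17, inhibitors, ADAMTS-like proteins, ADAMTS substrates, and markers of spermatogonia, spermatocytes, spermatids, Sertoli cells, Leydig cells, peritubular and stromal cells, endothelial cells, macrophages and epididymis. Library values were listed for germ-cell ADAMs, for somatic ADAMs and ADAMTS genes called between breeds or for the interaction, and for the 3 with the highest absolute fold change with age in each direction and breed. Related genes were named when called between breeds or for the interaction, or when among the 2 of a list that changed most in Ha vs Hb in each direction. LOC genes and the ADAM5 neighbour were chosen after their values were seen. Tables and figures were made with pandas 2.3.3, matplotlib 3.10.9, scipy 1.17.1 and numpy 2.4.6 under Python 3.11.15.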

Additional observations from a re-analysis of the deposited data

Results flagged for a closer look

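The change with age differed between the breeds, by the interaction test, for 6 of 36 members and 12 of 66 related genes tested (all genes 5.14%). Values are the log2 fold change with age in LC minus that in HZ. ADAM5 passed the test with an adjusted p of 0.00377, and its fitted value is not given because Ha lay at the floor. The other members were ADAMTS2 (2.78), ADAMTS14 (2.15), ADAMTS15 (1.71), ADAMTS17 (1.48) and ADAMTS7 (1.07). Among related genes the value was positive for COL1A1 (4.02), COL3A1 (3.19), COL1A2 (2.83), ADAMTSL2 (2.73), THBS1 (2.53), COL2A1 (2.38), FN1 (1.75), FBN1 (1.36) and RHBDF2 (1.34). It was negative for RELN (-5.11), NCAN (-2.12) and ACE (-1.07). Markers of several cell types also differed in this way. Called with a positive value were 5 of 10 for stromal cells, 1 of 5 for endothelial cells, 1 of 5 for macrophages and 2 of 11 for spermatogonia (all genes 3.51%), and with a negative value 2 of 10 for spermatids (1.62%). All stromal, endothelial and macrophage markers had a positive value, and 9 of 10 spermatid markers a negative one. edgeR called none of 8 spermatocyte, 8 Sertoli cell and 7 Leydig cell markers (4, 5 and 3 at an unadjusted p under 0.05, no other tool used). Their part in these differences was not tested.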

How the results depend on the processing

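In Ha vs Hb, 17 of the 22 members called were called under every alternative tried, and in La vs Lb 15 of the 21. That held for 0 of 2 in Ha vs La, 0 of 3 in Hb vs Lb and 2 of 6 for the interaction (ADAM5 and ADAMTS2). No fold change of a named gene that was called took the other sign under any alternative.

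The 2 members called in Ha vs La became 0 with limma on log2(FPKM + 1) and 1 with limma on log2(FPKM + 0.1), with the replicate block or with all 12 libraries in 1 fit. The 3 of Hb vs Lb became 7 with DESeq2, 1 with limma on log2(FPKM + 1), 0 with the replicate block and 7 with all 12 libraries in 1 fit. The 6 of the interaction became 2 with limma on log2(FPKM + 1). Of the related genes, 63 were tested in Ha vs La (all genes 7.62% called), 63 in Hb vs Lb (3.85%) and 65 in La vs Lb (47.6%). The 7 of Ha vs La became 4 with limma on log2(FPKM + 1). The 10 of Hb vs Lb became 16 with DESeq2, 6 with limma on log2(FPKM + 1) and 5 with the replicate block. The 29 of La vs Lb (9 higher, 20 lower) became 40 with limma on log2(FPKM + 0.1) (8 higher, 32 lower). With total library size they became 35 (8 higher, 27 lower). The alternatives for related genes, and for folds at the floor, were chosen after seeing the data. The cause was not tested.

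With each library left out in turn, members called ranged from 22 to 23 in Ha vs Hb, 18 to 22 in La vs Lb, 1 to 3 in Ha vs La, 0 to 5 in Hb vs Lb and 4 to 8 for the interaction. Related genes ranged from 39 to 42, 27 to 33, 5 to 8, 3 to 11 and 8 to 17 in the same order.

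The replicate block assumes that equal replicate numbers belong together. Correlations between libraries of the same number, in their deviations from the group mean, were from -0.0222 to 0.0527, under 0.1 throughout. In Ha vs Hb each number matched its own best, and in the other comparisons none did.

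Depth limits the members with few counts, and ADAM5 had 1 count over Ha. ADAM29 passed the filter of no comparison, and ADAM7 failed it in 2 of the 4 pairs of groups and ADAM30 in Ha vs La. With no filter on low counts, 23 members were called in Ha vs Hb, 7 of them higher, against 22 and 6 with the filter. The 35 members that passed the filter kept their result there. The added call, higher in Hb, was thus that of ADAM29, since ADAM7 had no count in Hb.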
